A study of Mus musculus with 48 samples.

Results

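The comparison described here is the last 4 h of the day in old skin: epidermal stem cells of aged mice at ZT0 set against those of aged mice at ZT20. Its members are the 8 arrays, of 48 in the series, that the labels give to aged animals at T0 (4 arrays) and at T20 (4 arrays). All mice were wild-type C57B6/J females. The aged ZT0 and aged ZT20 mice were 102 to 116 weeks old. For the same step at a young age there were 4 young ZT0 and 4 young ZT20 mice, 8 weeks old. Each array holds the RNA of epidermal stem cells from the epidermis of 1 mouse. ZT (zeitgeber time) counts hours from lights on, so the step from ZT20 to ZT0 runs from late night to dawn. The light schedule, and how the cells were isolated, were not stated in the sources used.

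Mice are active at night, and their skin keeps time with a transcriptional clock. In that clock CLOCK and BMAL1 (the product of Arntl) switch on Per, Cry and the D-box factors Dbp, Tef and Hlf, whose proteins then feed back on the system. The basal epidermis is renewed by stem cells that copy their DNA on a daily schedule, and in mouse skin S phase is known to be commonest at night. Glucocorticoids, which in mice peak at the start of the night, and feeding reach the same cells through their own target genes.

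Levels are log2 values of 1 probe set per gene, so a difference of 1 is a doubling, and a difference is always ZT0 minus ZT20 unless another pair is named. A gene is said to rise or fall only where limma's test passed an adjusted p of 0.05 over 12823 genes. In aged cells 148 genes rose and 121 fell at dawn, 269 in all, which is 2.1% of the genes tested (1.15% higher and 0.944% lower). The median difference over all genes was 0.03, and that of the called genes was 0.70 in size. limma gave an unadjusted p under 0.05 for 1806 of the 12823 genes, the background for such counts below. A change of at least 2-fold was seen in 23 of the genes that rose and 13 of those that fell. Without overlap between the 4 ZT0 and the 4 ZT20 arrays were 90 of the 148 that rose and 76 of the 121 that fell, beside 5.54% of all genes tested (3.45% with ZT0 above and 2.1% with ZT0 below). With each array centred on its median, 105 rose and 143 fell, against 148 and 121, so the balance of the directions is not settled.

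The genes that moved at dawn were mostly at an extreme of their day. ZT0 was the lowest of the 6 aged time points in 98 of the 121 genes that fell and the highest in 130 of the 148 that rose. ZT20 was the highest time in 37 of the genes that fell and the lowest in 89 of those that rose. Since ZT0 and ZT20 chose these genes, the counts are a description. In the same fit the other 4 h steps of aged cells called 201 genes for ZT4 minus ZT0, 424 for ZT8 minus ZT4, 11 for ZT12 minus ZT8, 225 for ZT16 minus ZT12 and 4 for ZT20 minus ZT16. Neighbouring steps share arrays, and no test was made between these counts.

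**Figure D1:**
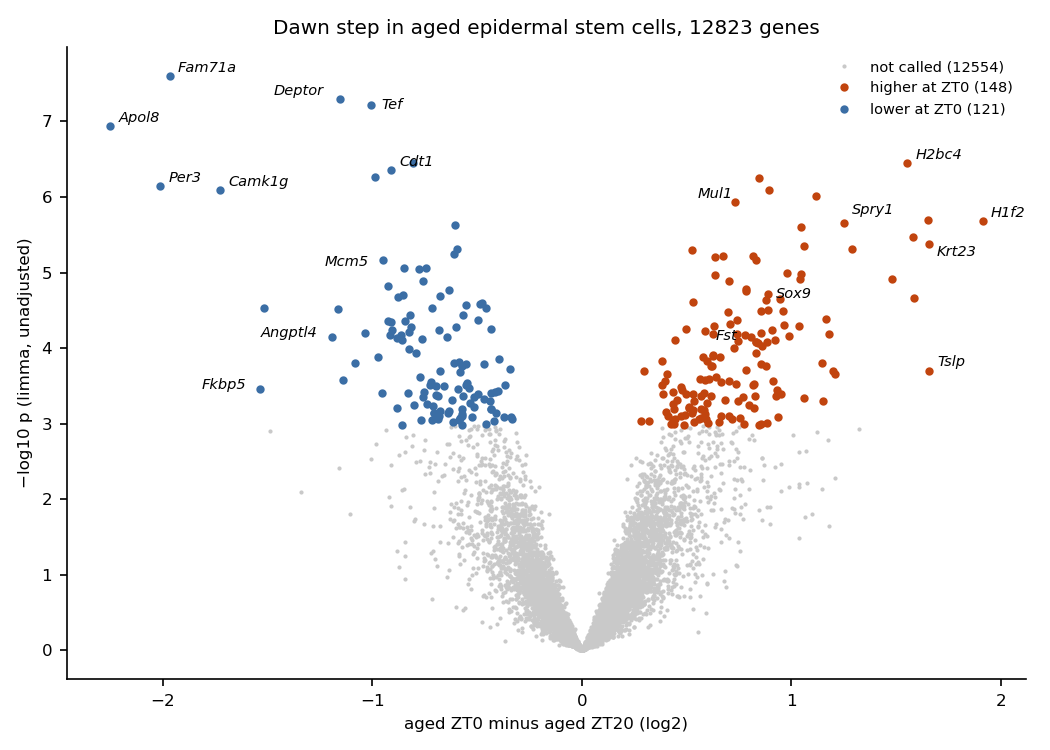
Each point is 1 of 12823 genes; the horizontal axis is the difference aged ZT0 minus aged ZT20 (log2) and the vertical axis is −log10 of limma's unadjusted p. The 148 genes that rose (orange) and the 121 that fell (blue) had adjusted p under 0.05; Apol8, Fam71a and Per3 lie farthest to the left and H1f2 farthest to the right among the labelled genes.

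The library labelled aged ZT0 replicate 4 stood apart from the other 3 of its group. Each array was left out in turn, the genes called without it were taken, and the array was placed between the group means on a scale where 0 is the mean of the opposite time and 1 the mean of the other 3 arrays of its own time. Its median place over 492 genes was 0.22, and it was nearer to its own group in 28.7% of them. The other 7 arrays had median places of 0.68 to 1.08, and were nearer to their own group in 64.4% to 93.8% of the genes. Left out one at a time, aged ZT0 replicates 1, 2, 3 and 4 gave 96, 165, 128 and 492 called genes and ZT20 replicate 2 gave 144, each over 1.5 times away from 269. For many genes named below in which replicate 4 of ZT0 lay nearer to the ZT20 mean, the value without it is given too. For others, such as H1f4, H3f3b and Mcm7, that value is not given, so its absence says nothing about replicate 4.

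Technical measures did not separate the groups. The array median, array weight, hybridisation controls, high-GC background and the gap between 3′ and 5′ probes for actin and for Gapdh overlapped between the aged ZT0 and aged ZT20 arrays, with an adjusted p of 0.857 for each (exact permutation test, 2-sided, 70 splits, smallest possible p 0.0286). Correlations among the 8 arrays over all probe sets were 0.981 to 0.992. The sample type was checked against cell markers. All 8 basal keratinocyte markers (Krt5, Krt14, Krt15, Itga6, Itgb4, Trp63, Col17a1 and Cdh3) were above the dim limit of 3.957, none changed, none had an unadjusted p under 0.05, and their mean was 11.24 to 11.36 at ZT0 and 11.22 to 11.43 at ZT20.

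Markers of other cells did not pass the test either, apart from 1 bulge gene. Of the markers tested for fibroblasts (5), endothelium (2), Langerhans and myeloid cells (6), T cells (5), melanocytes (2), skeletal muscle (6), red blood cells (3) and adipocytes (1), limma called 0, and 0, 0, 0, 2, 1, 0, 1 and 0 had an unadjusted p under 0.05. Cd207, Ptprc, Lyz2, Adipoq, Dct and Pdgfra were among those left out as dim. Suprabasal markers had a median difference of 0.14, with 0 of 9 called. An unadjusted p under 0.05 was found for 3 of them, beside 1806 of all 12823 genes. Markers of the upper follicle and sebaceous gland had a median of 0.39, 0 of 8 called and 5 at an unadjusted p under 0.05; their mean level was 9.09 to 9.57 at ZT0 and 8.6 to 9.27 at ZT20. In bulk RNA a change in the number of cells of a type and in the RNA per cell cannot be told apart.

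The promoters of 2 clock genes that fell and the E2F sites of 6 replication genes that fell are shown first, because the results below turn on these genes. Sequences are from RefSeq (GRCm38.p6), 250 bases before to 50 after the start of a gene, in the gene's direction. In the Per3 promoter (chr4:151044616-151044915, minus strand) capitals mark the D-box, here TTANGTAA, the letters bound by DBP, TEF and HLF; it occurs at -205 and -158 from the start. In the 2 Tef promoters (chr15:81802423-81802722 and chr15:81811164-81811463, plus strand) capitals mark the E-box CACGTG, the letters bound by CLOCK and BMAL1, at -127 and -138.
Per3: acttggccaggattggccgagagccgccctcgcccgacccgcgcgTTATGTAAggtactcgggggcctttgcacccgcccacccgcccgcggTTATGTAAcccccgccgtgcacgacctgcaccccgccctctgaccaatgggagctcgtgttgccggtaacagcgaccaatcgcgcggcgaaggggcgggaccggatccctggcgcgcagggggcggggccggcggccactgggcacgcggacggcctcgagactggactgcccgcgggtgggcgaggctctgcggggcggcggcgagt
Tef, first start: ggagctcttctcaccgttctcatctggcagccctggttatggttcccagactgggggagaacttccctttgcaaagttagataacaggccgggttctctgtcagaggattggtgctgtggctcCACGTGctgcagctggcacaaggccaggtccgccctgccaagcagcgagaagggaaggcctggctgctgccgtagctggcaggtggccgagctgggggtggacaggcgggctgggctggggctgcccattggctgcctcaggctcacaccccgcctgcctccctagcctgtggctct
Tef, second start: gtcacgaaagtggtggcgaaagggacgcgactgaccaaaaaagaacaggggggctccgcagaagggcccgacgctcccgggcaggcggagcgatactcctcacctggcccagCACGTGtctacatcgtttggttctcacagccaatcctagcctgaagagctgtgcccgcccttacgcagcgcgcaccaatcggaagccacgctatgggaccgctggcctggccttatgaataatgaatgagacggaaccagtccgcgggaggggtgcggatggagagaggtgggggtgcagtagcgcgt
On either strand CACGTG is in 7.15% of 32851 promoters of this length and TTANGTAA in 2.32%. Among tested genes with a listed promoter the shares are 11.3% and 1.74%. Among the 95 of these that fell they are 11.6% (11 genes) and 4.21% (4 genes). A match describes the letters and shows neither binding nor a cause.

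The clock genes with the clearest change at dawn were Per3 and Tef, and both fell. Per3, a period gene of the repressor arm, stood at 5.27, 5.03, 4.39 and 5.42 in the aged ZT0 mice, against 6.46, 6.39, 7.23 and 8.09 in the aged ZT20 mice. All ZT0 arrays lay below all ZT20 arrays, replicate 4 included. The difference was -2.01 (SE 0.35, adjusted p = 8.69e-04), which is 4.04-fold lower at ZT0. Other probe sets of Per3 moved less, with differences of -0.54, -0.41 and -0.31 for those above the dim limit, and the mean of all its probe sets gave -0.69 (adjusted p = 8.95e-04), so the direction is shared and the size is not.

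Tef, a D-box factor of the PAR bZIP family, read 7.27, 7.7, 7.6 and 7.42 at ZT0 in aged cells, against 8.57, 8.34, 8.29 and 8.81 at ZT20. The lowest ZT20 array was above the highest ZT0 array, and the difference was -1.01 (SE 0.15, adjusted p = 2.59e-04), or 2.01-fold. Its second probe set gave -1.21. Tef passed the test with each of the 8 arrays left out, with only the 8 arrays fitted, and in young cells too, where it fell by 0.64 on the log2 scale (adjusted p = 0.0318).

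The rest of the clock did not pass the test in this 4 h step with all 8 arrays. Of 19 clock genes tested in 4 lists, 2 were called, beside 2.1% of all genes. They were Per3 among 9 repressors and modulators and Tef among 4 D-box factors. Per2, the partner of Per3, was at 6.39, 6.32, 6.29 and 5.35 at ZT0, against 6.75, 6.87, 6.62 and 6.71 at ZT20 in aged cells. Its groups did not overlap, but the difference of -0.65 missed the threshold (SE 0.21, adjusted p = 0.0975), and without replicate 4 of ZT0, the lowest array, it was -0.40 (adjusted p = 0.331). A second Per2 probe set gave -1.35.

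Bhlhe40, the repressor DEC1, tended the other way in 3 of 4 mice. Aged ZT0 arrays read 10.57, 10.71, 10.37 and 9.6, against 9.72, 9.8, 9.81 and 10.04 at ZT20. At ZT0 replicate 4 lay below every ZT20 array and the other 3 above, and the difference was 0.47 with it (adjusted p = 0.0975) and 0.71 without it (adjusted p = 6.88e-04). Dbp, Hlf and Cry1 were lower by 0.50, 0.43 and 0.45 on average with adjusted p of 0.33, 0.182 and 0.436, and each overlapped between the times. Ciart differed by -0.37 (adjusted p = 0.22). Nfil3, which represses through the D-box, differed by 0.31 (adjusted p = 0.321).

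The activator arm gave no call. Arntl, Clock, Npas2 and Arntl2 differed by 0.07, 0.04, 0.30 and 0.21, limma called 0 of the 4, and 1 (Npas2) had an unadjusted p under 0.05. Other Clock probe sets gave 0.03, -0.04 and 0.39. Arntl read 8.81, 8.83, 9.89 and 8.68 at ZT0 and 9.08, 9.31, 9.12 and 8.44 at ZT20, so the times overlapped throughout, and without replicate 3 of ZT0 its difference turned to -0.21. Nr1d2 (REV-ERB beta) and Rora were the tested members of the receptor list, with differences of -0.12 and 0.07 and 0 of 2 at an unadjusted p under 0.05. Other Rora probe sets above the dim limit gave 0.45, 0.11 and 0.03, and a second of Nr1d2 gave -0.21. Per1, Cry2, Csnk1d and Csnk1e differed by 0.14, -0.23, -0.17 and 0.15, with adjusted p between 0.513 and 0.83. Other probe sets of Csnk1d gave -0.20, -0.47 and -0.09, and those of Csnk1e gave 0.05 and -0.19. Per1 differed by 0.39 without ZT0 replicate 4 (adjusted p = 0.238).

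**Figure D2:**
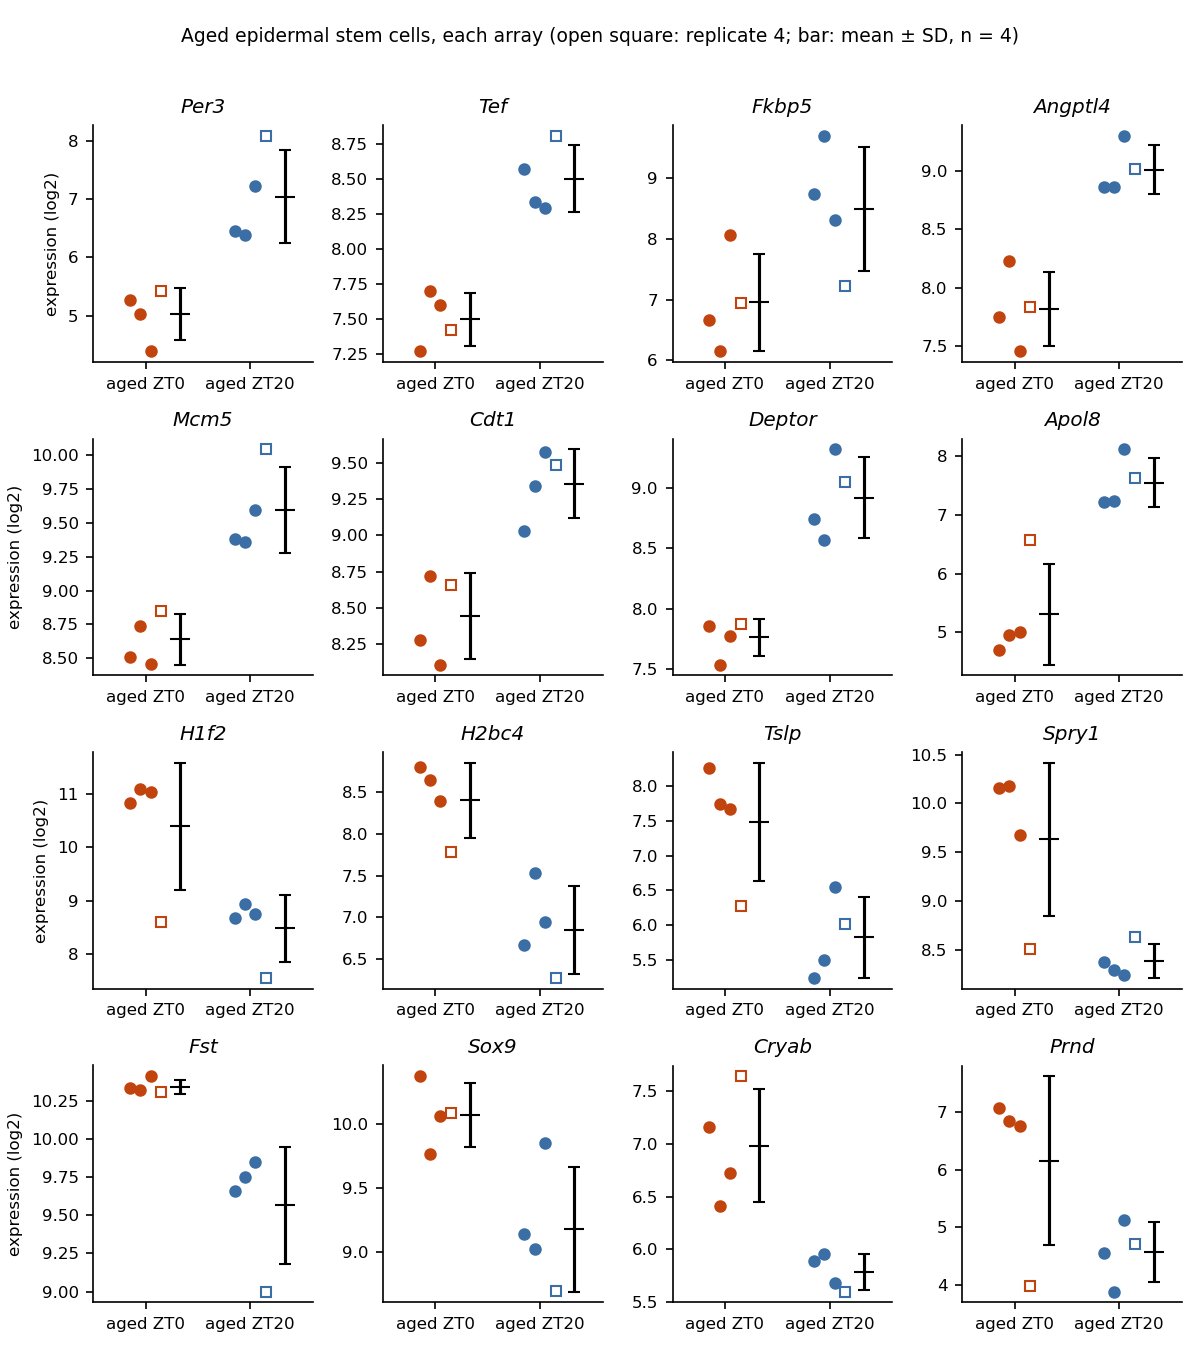
Expression (log2) of 16 genes in each of the 8 aged arrays, ZT0 (orange) left of ZT20 (blue); the open square is replicate 4 of a group, and the bar is the mean ± SD of 4 mice. Per3, Tef, Angptl4, Mcm5, Cdt1 and Deptor separate in all 4 replicates, whereas H1f2, Spry1 and Prnd have ZT0 replicate 4 at the ZT20 level.

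Hormone and fuel targets fell as single genes, not as lists. Fkbp5 encodes an HSP90 partner that restrains the receptor for glucocorticoids, and is itself a target of it. It had 6.66, 6.16, 8.06 and 6.94 at ZT0 in aged cells, against 8.74, 9.70, 8.31 and 7.22 at ZT20. The mice of each time were spread over more than a unit and the groups overlapped. The difference was -1.54 (SE 0.39, adjusted p = 0.0269), and the call was lost without ZT0 replicate 1 or 2 or ZT20 replicate 1 or 2 (adjusted p of 0.11, 0.122, 0.0726 and 0.17). Fkbp5 was the only call among 17 tested glucocorticoid-induced genes, whose median was -0.10, beside 2.1% of all genes called.

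Other receptor targets did not pass with all 8 arrays. Tsc22d3 (GILZ) was at 8.23, 7.60, 8.78 and 7.27 at ZT0, against 8.99, 10.28, 8.40 and 8.84 at ZT20, a difference of -1.16 (adjusted p = 0.102) with overlapping groups. Zbtb16 differed by -0.94 (adjusted p = 0.053) and Ddit4, an inhibitor of mTORC1 signalling, by -0.79 (adjusted p = 0.0957; -0.97 and 0.0285 without ZT0 replicate 4). Klf9 differed by -0.02 (SE 0.12, adjusted p = 0.974), and Cebpd by 0.57 (adjusted p = 0.102; 0.68 and 0.0393 without ZT0 replicate 4). Other Klf9 probe sets gave 0.01, 0.06, 0.13 and -0.62. Over the whole list 7 differences were above 0 and 10 below. Without ZT0 replicate 4 1 gene of the list rose and 2 fell, beside 266 and 226 of all genes.

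Angptl4 encodes a secreted inhibitor of lipoprotein lipase that is induced by fasting through PPARs and also by glucocorticoids. It read 7.75, 8.23, 7.46 and 7.84 in aged ZT0 mice, against 8.86, 8.86, 9.30 and 9.02 in aged ZT20 mice. The groups stood clear of each other, with a difference of -1.19 (SE 0.27, adjusted p = 0.00951), 2.29-fold. Without ZT0 replicate 3 the difference was -1.07 (adjusted p = 0.0587). In the daily course of aged cells Angptl4 had means of 7.82, 8.65, 7.79, 7.87, 8.58 and 9.01 in order from ZT0 to ZT20.

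Cpt1a, the carnitine palmitoyltransferase that admits fatty acids to mitochondria, fell with it. Its arrays read 8.37, 8.52, 8.50 and 8.61 at ZT0 and 8.89, 8.99, 9.33 and 9.21 at ZT20, with no overlap and a difference of -0.60 (SE 0.13, adjusted p = 0.0086; -0.56 and 0.0516 without ZT0 replicate 1). Pdk1, a pyruvate dehydrogenase kinase, was the 1 gene called among 20 of glycolysis and hypoxia, beside 2.1% of all genes. It read 8.55, 8.74, 8.34 and 8.70 at ZT0, against 9.12, 9.35, 9.06 and 9.23 at ZT20. Every ZT0 mouse was below every ZT20 mouse (-0.61, SE 0.11, adjusted p = 0.00168), its other 2 probe sets gave -0.59 and -0.66, and the call held with each array left out.

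The related kinase gene Pdk4 did not pass. Its values of 5.97, 5.50, 5.12 and 6.48 at ZT0 overlapped the ZT20 values of 5.95, 7.38, 7.01 and 5.6, with replicates 2 and 3 of ZT0 below them all (-0.72, adjusted p = 0.362). Without ZT0 replicate 4 the Pdk4 difference was -0.96 (adjusted p = 0.169). Among 10 tested fasting and fuel genes 2 fell and 0 rose, beside 0.944% of all genes that fell, with a median of -0.25. The 20 glycolysis and hypoxia genes had a median of -0.10. The 24 oxidative phosphorylation genes had a median of 0.04, limma called 0, and 0 had an unadjusted p under 0.05.

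Genes of S phase were the group in which the most members fell at dawn. Of 28 tested members 10 fell and 0 rose, beside 0.944% of all genes that fell, all 28 differences were below 0, and the median was -0.50 beside 0.03 over all genes. In 13 of the 28 every ZT0 array was below every ZT20 array, beside 2.1% of all genes. The mean over the list was 6.99, 7.15, 6.77 and 7.12 in the 4 aged ZT0 mice, against 7.29, 7.44, 7.52 and 7.82 in the aged ZT20 mice, so the list mean did not overlap and ZT0 replicate 4 stood with its own group. The list was chosen with results of these samples known, and its direction is not independent evidence.

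The helicase that unwinds DNA at the fork is a ring of MCM2 to MCM7, and 5 of its 6 genes fell. Mcm5 read 8.51, 8.74, 8.46 and 8.85 at ZT0 and 9.38, 9.36, 9.59 and 10.04 at ZT20 (-0.95, SE 0.18, adjusted p = 0.00283). Mcm3 read 7.22, 7.51, 7.25 and 7.48 at ZT0, against 7.80 to 8.70 at ZT20 (-0.85, SE 0.18, adjusted p = 0.00535). Mcm6 read 6.73, 6.74, 6.18 and 6.72 at ZT0, against 7.11, 7.21, 7.36 and 8.08 at ZT20 (-0.85, SE 0.17, adjusted p = 0.00334). For these 3 subunits the times did not overlap and the call held with each array left out.

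Mcm2 and Mcm7 fell by 0.80 and 0.57 on the log2 scale (adjusted p = 0.0351 and 0.0298). Mcm2 did not overlap, and Mcm7 did, through a ZT0 replicate 4 value of 7.63 beside a lowest ZT20 value of 7.58. Mcm4 was the exception, with 7.09, 7.39, 6.90 and 6.61 at ZT0 and 7.11, 6.92, 7.07 and 7.21 at ZT20, a difference of -0.08 (SE 0.15, adjusted p = 0.885). Mcm10, an initiation factor outside the ring, had no overlap and a difference of -0.55 but an adjusted p of 0.063.

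Helicase loading was represented by Cdt1 and Cdc6, and both fell. Cdt1 was at 8.28, 8.72, 8.11 and 8.66 at ZT0, against 9.03, 9.34, 9.57 and 9.48 at ZT20, a difference of -0.91 (SE 0.15, adjusted p = 7.99e-04) that held with each array left out, and its second probe set gave -0.97. Cdc6 read 4.22, 4.16, 3.77 and 4.16 at ZT0 and 4.37, 5.27, 4.94 and 5.17 at ZT20, near the dim limit at both times (-0.86, adjusted p = 0.00983). Neither overlapped.

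Of the polymerase genes, Pola1, Prim1 and Pole fell by 0.79, 0.50 and 0.61 on the log2 scale (adjusted p = 0.0133, 0.0291 and 0.0162). Pola1 and Prim1 encode subunits of the primase complex that starts each new strand, and Pole the catalytic subunit that extends the leading strand. Pold1 of the lagging strand polymerase differed by -0.27 (adjusted p = 0.571). Pcna, the sliding clamp, read 10.49, 10.76, 10.45 and 10.77 at ZT0, against 10.98, 10.93, 10.86 and 10.95 at ZT20, with no overlap, a difference of -0.31 and an adjusted p of 0.056. E2f1, a transcription factor of the S phase program, differed by -0.44 (adjusted p = 0.0564), and Rrm1 and Rrm2 of ribonucleotide reductase by -0.35 and -0.59 (adjusted p = 0.0768 and 0.236).

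Outside the S phase list, 2 genes of DNA repair that work at the fork fell. Lig1, which joins Okazaki fragments, read 8.21, 8.95, 8.41 and 8.59 at ZT0, against 9.11, 9.03, 9.07 and 9.69 at ZT20 (-0.68, adjusted p = 0.0298). Ung, which removes uracil from DNA, read 7.42, 7.47, 6.72 and 7.30 at ZT0, against 7.50, 7.91, 8.00 and 8.54 at ZT20 (-0.76, adjusted p = 0.0302). Both separated by time, but Lig1 lost its call without ZT0 replicate 1 or 3 or ZT20 replicate 4 (adjusted p of 0.158, 0.101 and 0.145), and Ung without ZT0 replicate 1 or 3 or ZT20 replicate 2, 3 or 4 (adjusted p of 0.054 to 0.181). Among 25 tested genes of DNA repair and p53 they were the 2 that fell, and Fas was the 1 that rose. Of all genes 0.944% fell and 1.15% rose.

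The 10 calls of the S phase list depended on single mice more than the direction did. Without ZT0 replicate 1, ZT0 replicate 3 or ZT20 replicate 4, 6, 5 and 6 members fell, and without ZT0 replicate 4 13 did. In these fits 41, 58, 106 and 226 of all genes fell. With array weights 5 members fell, and with only the 8 arrays fitted 0 did, with medians of -0.43 and -0.50.

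**Figure D3:**
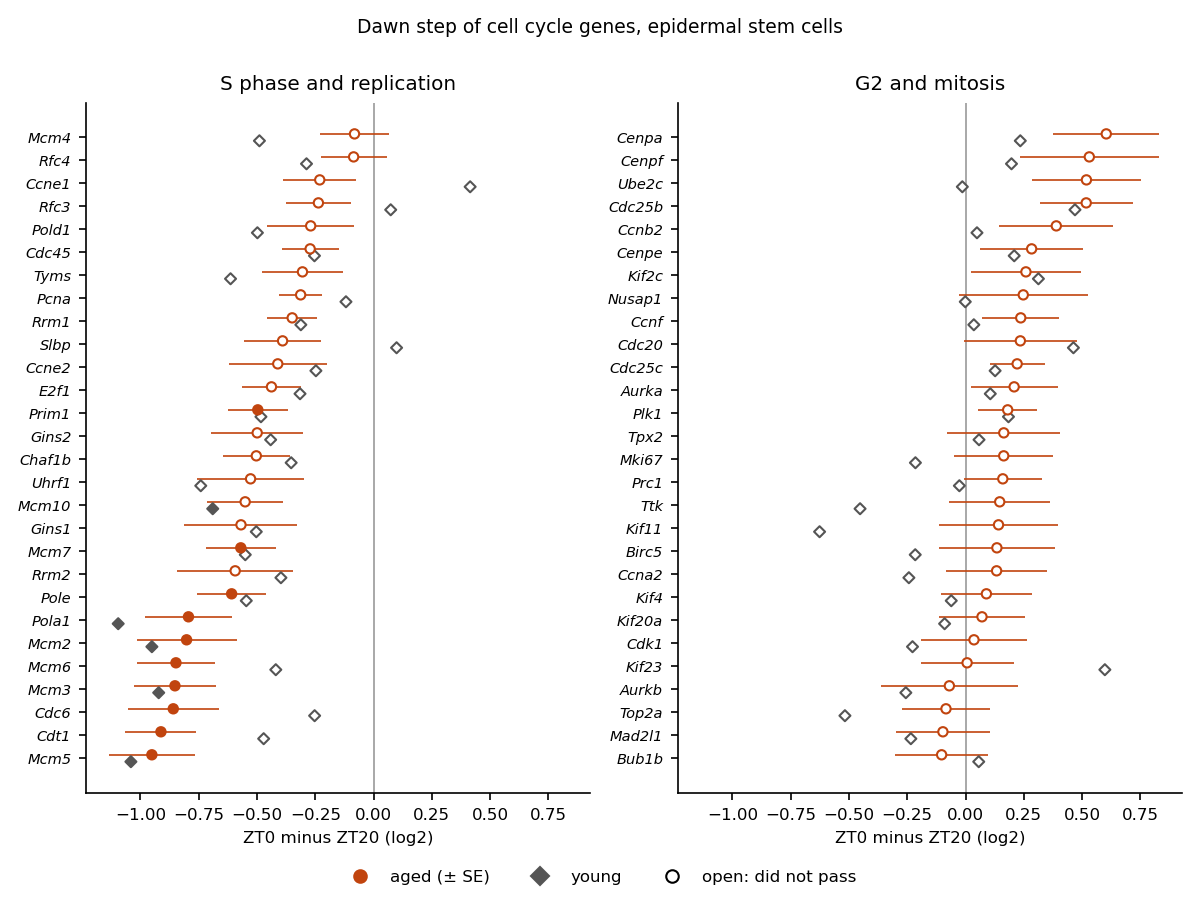
Difference ZT0 minus ZT20 (log2) of 28 S phase and 28 G2 and mitosis genes, ordered by the aged value; circles are aged cells with the SE of the fit, diamonds are young cells, and filled symbols passed an adjusted p of 0.05. All 28 aged S phase values are below 0, and none of the aged G2 and mitosis genes passed.

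Of the replication genes that fell, 6 hold an E2F site in the promoter window. E2F factors bind near the starts of many genes of DNA replication, and the letters searched were TTTCGCGC and TTTGGCGC on either strand. They are in 6 of the 9 S phase genes that fell and have a listed promoter. Of S phase genes that were not called, 2 of 14 hold them. Of all genes that fell 9 of 95 do, and outside the S phase list 3 of 86. Of genes that rose 2 of 118 do. The share was 1.69% of 10302 tested genes and 0.813% of 32851 promoters. For each gene 1 stretch is given, its matches in capitals, with the place of its first match counted from the start of the gene.
Cdt1, chr8:122568037-122568064, plus strand, at 32: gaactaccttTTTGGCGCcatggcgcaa
Mcm3, chr1:20820263-20820284, minus strand, at 38: cttgggaagtTTTGGCGCcaag
Mcm5, chr8:75109348-75109375, plus strand, at -153: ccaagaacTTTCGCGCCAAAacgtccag
Mcm6, chr1:128359796-128359823, minus strand, at -110: cgtatgctTTTGGCGCGAAAagtgcgtg
Mcm7, chr5:138171850-138171877, minus strand, at 16: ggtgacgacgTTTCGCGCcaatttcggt
Pola1, chrX:93632276-93632303, minus strand, at -138: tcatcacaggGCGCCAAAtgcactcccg
In Mcm5 and Mcm6 a pair of matches on opposite strands overlap, which gives the longer run of capitals, and Mcm6 has 3 matches in its window, of which 1 lies outside the stretch shown. The words describe these windows and say nothing of E2F binding at dawn.

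Later phases of the cell cycle did not fall with S phase. Of 28 tested genes of G2 and mitosis limma called 0, 3 had an unadjusted p under 0.05, and the median was 0.16. The list mean was 6.96 to 7.18 at ZT0 and 6.70 to 7.04 at ZT20, ranges that overlap. Cenpa and Cenpf, proteins of the centromere, Ube2c, which marks mitotic cyclins for destruction, and Cdc25b, a phosphatase that activates CDK1, had the largest differences of the list (0.60, 0.53, 0.52 and 0.52), with adjusted p of 0.181 to 0.443.

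Some linker and core histone genes rose at dawn. H1f2, which encodes a linker histone H1, read 10.83, 11.09, 11.03 and 8.61 at ZT0 in aged cells, against 8.68, 8.93, 8.76 and 7.55 at ZT20. At ZT0 3 mice were about 2 units above ZT20, and replicate 4 was at the ZT20 level. The difference was 1.91 (SE 0.35, adjusted p = 0.00165), 3.77-fold, 2.51 without that array (adjusted p = 2.58e-07), and 1.91 in a second probe set.

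H2bc4, a histone H2B gene, had 8.80, 8.65, 8.39 and 7.78 at ZT0, against 6.67, 7.53, 6.94 and 6.27 at ZT20. Here all 4 ZT0 mice were above all ZT20 mice, with a difference of 1.55 (SE 0.26, adjusted p = 7.67e-04), 2.93-fold, and the call held with each array left out. Looking at all histone genes was a choice made after these values were seen. Of 24 tested, 4 rose (H1f2, H2bc4, H1f4 by 0.82 and H3f3b by 0.28) and 0 fell, beside 1.15% of all genes that rose. The median was 0.13 beside 0.03 over all genes. H1f4 read 11.24, 10.81, 11.08 and 10.17 at ZT0, against 9.89, 10.05, 10.02 and 10.06 at ZT20, with no overlap. Histone genes form a family of close copies, and their probe sets may share signal.

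Among the largest falls were genes with no place in the lists. Apol8, of the apolipoprotein L family, read 4.69, 4.95, 5 and 6.57 at ZT0, against 7.22, 7.24, 8.12 and 7.63 at ZT20. The difference of -2.25 (SE 0.35, adjusted p = 3.66e-04), 4.76-fold, was the lowest among named genes, replicate 4 lay between the other ZT0 arrays and the ZT20 arrays, and without it the value was -2.67. Fam71a read 5.86, 6.48, 6.45 and 7.89 at ZT0, against 8.81, 8.78, 7.97 and 8.99 at ZT20 (-1.97, SE 0.29, adjusted p = 2.59e-04), and replicate 4 again lay next to the lowest ZT20 array (-2.38 without it).

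Camk1g and Deptor did not rest on 1 mouse. Camk1g, a calcium/calmodulin-dependent kinase, had 5.91, 6.55, 6.95 and 6.43 at ZT0, against 8.13, 8.58, 8.23 and 7.81 at ZT20 (-1.73, SE 0.30, adjusted p = 8.69e-04). Deptor, an inhibitor bound to mTOR, had 7.86, 7.54, 7.78 and 7.88 at ZT0, against 8.74, 8.57, 9.32 and 9.05 at ZT20 (-1.15, SE 0.17, adjusted p = 2.59e-04). Both separated fully, and both passed under all 20 alternatives tried, as did Tef. Of the other Deptor probe sets, those above the dim limit gave -1.02 and -1.28.

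Enzymes of several kinds were among the other large falls. Tktl1, a transketolase-like gene, fell by 1.52 on the log2 scale (adjusted p = 0.00637) and Mthfd1l, a mitochondrial folate enzyme, by 0.99 (adjusted p = 8.06e-04); their groups did not overlap. Tgm3, a transglutaminase of the epidermal barrier and the hair, read 7.78, 7.99, 7.93 and 7.73 at ZT0, against 8.61, 9.39, 9.03 and 8.72 at ZT20 (-1.08, adjusted p = 0.0164). Its call was lost without ZT0 replicate 1 or ZT20 replicate 2 (adjusted p of 0.0649 and 0.0827).

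Krt4, a keratin of wet epithelia, fell by 1.16 with overlap (adjusted p = 0.00642), and its second probe set gave -0.72. Without ZT0 replicate 1 or ZT20 replicate 4 its adjusted p was 0.0639 and 0.0522. Zfp296, Rasl11b (a Ras-like small GTPase) and Rnf227 fell by 1.14, 1.03 and 0.97 on the log2 scale (adjusted p = 0.0229, 0.00928 and 0.0145), and each overlapped through ZT0 replicate 4. Zfp296 read 6.31, 6.34, 6.24 and 8.18 at ZT0, against 7.53, 8.09, 7.63 and 8.38 at ZT20. Without that array the 3 differences were -1.61, -1.30 and -1.27, whereas the calls of all 3 were lost without ZT0 replicate 1 (adjusted p of 0.13, 0.0802 and 0.11), ZT0 replicate 3 (0.118, 0.0644 and 0.0929) or ZT20 replicate 2 (0.0696, 0.0501 and 0.0941), and that of Zfp296 also without ZT0 replicate 2 or ZT20 replicate 4 (0.0904 and 0.0899).

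The largest rises held secreted and signalling genes. Tslp, an epithelial cytokine of skin inflammation, read 8.26, 7.74, 7.67 and 6.28 at ZT0 in aged cells, against 5.24, 5.50, 6.55 and 6.02 at ZT20. It rose by 1.66 (SE 0.41, adjusted p = 0.0188), with overlap through replicate 4, by 2.06 without it, and lost its call without ZT0 replicate 1, 2 or 3 or ZT20 replicate 1 or 2 (adjusted p of 0.0592 to 0.129). Spry1, an inhibitor of receptor tyrosine kinase signalling, read 10.16, 10.18, 9.68 and 8.51 at ZT0, against 8.37, 8.29, 8.24 and 8.63 at ZT20. At ZT0 3 mice were over a unit above every ZT20 mouse and replicate 4 was within their range (1.25, SE 0.23, adjusted p = 0.00165; 1.62 without it).

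Gadd45g, a stress-inducible inhibitor of growth, had 9.75, 10.48, 10.00 and 8.51 at ZT0, against 7.66, 8.44, 7.55 and 8.78 at ZT20 (1.58, SE 0.29, adjusted p = 0.00215; 1.97 without replicate 4). Krt23, a type I keratin, had 6.65, 6.37, 7.19 and 5.10 at ZT0, against 4.82, 4.74, 4.76 and 4.36 at ZT20 (1.66, SE 0.31, adjusted p = 0.00254; 2.06 without replicate 4). Krt23 separated by time and Gadd45g overlapped through replicate 4. Mlf1, and Prnd, a relative of the prion gene, rose by 1.65 and 1.59 (adjusted p = 0.00165 and 0.00559), each with ZT0 replicate 4 at the ZT20 level (5.01 for Mlf1, 3.97 for Prnd) and differences of 2.22 and 2.32 without it. Prnd lost its call without ZT0 replicate 1 (1.28, adjusted p = 0.0609).

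The other large rises included Tifa, Nfkbie, Cnn3 and Serpinb1a. Tifa, an adaptor upstream of NF-kB, had 5.20, 5.33, 5.11 and 4.53 at ZT0, against 3.80, 3.92, 3.86 and 3.88 at ZT20 (1.18, adjusted p = 0.00928; 1.35 without ZT0 replicate 4), with no overlap. All its ZT20 values were below the dim limit of 3.957, so the size of its difference is uncertain. Nfkbie, an inhibitor of NF-kB, rose by 1.21 with overlap (adjusted p = 0.0202; 1.53 without ZT0 replicate 4), and its call was lost without ZT0 replicate 1, 2 or 3 or ZT20 replicate 2 or 3 (adjusted p of 0.0658 to 0.106). Cnn3, an actin-binding calponin, rose by 1.48 (adjusted p = 0.00404; 1.86 without ZT0 replicate 4), its second probe set gave 1.57, and its times did not overlap; it too was below the dim limit in all 4 ZT20 mice (3.38 to 3.86). Serpinb1a, an inhibitor of neutrophil proteases, rose by 1.29 (adjusted p = 0.00259), with replicate 4 of ZT0 at 4.71 beside 4.34 to 4.72 at ZT20 (1.67 without it).

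Cryab, a small heat shock protein, was the reverse case. It read 7.16, 6.41, 6.72 and 7.64 at ZT0, against 5.89, 5.96, 5.68 and 5.6 at ZT20, so replicate 4 was the highest of the clearly separated ZT0 mice (1.20, SE 0.29, adjusted p = 0.0188). Without replicate 4 or 1 of ZT0, or replicate 4 of ZT20, it missed the threshold (0.98, 1.14 and 1.14; adjusted p of 0.0623, 0.0823 and 0.057), and its other probe sets gave 0.90 and -0.08. It was the 1 call among 14 heat shock chaperones, whose median was 0.07, beside 2.1% of all genes called. Muc15, a membrane mucin, and Abi3bp, a matrix protein, rose by 1.17 and 1.15 without overlap (adjusted p = 0.00783 and 0.0325). Of the Muc15 values at ZT20, 3.58 and 3.69 were below the dim limit. Muc15 lost its call without ZT0 replicate 1 (0.96, adjusted p = 0.0756), and Abi3bp without any of the aged arrays except ZT0 replicate 4 and ZT20 replicate 2 (adjusted p of 0.0577 to 0.136).

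Fst and Id3 rose in the signalling list and Sox9 among the bulge markers. Fst, the secreted activin inhibitor follistatin, had 10.33, 10.32, 10.41 and 10.31 at ZT0, against 9.66, 9.75, 9.85 and 9 at ZT20, so the ZT0 mice lay close together and above all ZT20 mice. The difference was 0.78 (SE 0.18, adjusted p = 0.00931), and 0.59 without ZT20 replicate 4 (adjusted p = 0.0769). Id3, an inhibitor of bHLH factors, rose by 0.59 (adjusted p = 0.0419; 0.78 without ZT0 replicate 4), overlapped between the times, and lost its call without any one of replicates 1 to 3 at either time (adjusted p of 0.0852 to 0.196).

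Sox9, a transcription factor of hair follicle stem cells, had 10.37, 9.76, 10.06 and 10.08 at ZT0, against 9.14, 9.02, 9.85 and 8.69 at ZT20. Only ZT20 replicate 3 reached into the ZT0 range (0.89, SE 0.18, adjusted p = 0.00531), and the other probe sets gave 0.69 and 0.01. Sox9 was the 1 call among 7 bulge markers, whose median was 0.20 and whose mean level was 8.02 to 8.14 at ZT0 and 7.67 to 7.88 at ZT20, with Lhx2 at 0.72 (adjusted p = 0.0564), Nfatc1 at 0.48 (adjusted p = 0.232) and Fgf18 at -0.30 (adjusted p = 0.493). Fst and Id3 were the 2 calls among 28 genes of Wnt, Notch, EGF and TGF-beta signalling, beside 1.15% of all genes that rose. The median of that list was 0.11.

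Cholesterol synthesis had 2 rises and no fall among 16 tested genes, beside 1.15% of all genes that rose. Mvd, a late enzyme of the mevalonate pathway, had 5.46, 5.94, 5.99 and 5.53 at ZT0, against 5.02, 5.08, 4.94 and 5.23 at ZT20 (0.66, adjusted p = 0.0145), with no overlap and 0.30 in its second probe set. Fdft1, which makes squalene, had 8.31, 8.70, 8.51 and 8.31 at ZT0, against 7.72, 8.33, 7.58 and 7.87 at ZT20 (0.59, adjusted p = 0.009). The list mean was 7.24, 7.32, 7.18 and 7.38 at ZT0, against 6.83, 6.98, 6.94 and 7.02 at ZT20, so it did not overlap, and the median difference was 0.30.

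The calls in this pathway were near the threshold. Fdft1 lost its call without ZT0 replicate 2 or ZT20 replicate 3 (adjusted p of 0.0554 and 0.0576), and Mvd without ZT0 replicate 2 or 3 or ZT20 replicate 3 (adjusted p of 0.0634, 0.0827 and 0.0504). Fdps and Stard4 separated by time but did not pass (0.65 and 0.68, adjusted p = 0.0573 and 0.224). The mean level of upper follicle and sebaceous markers, cells rich in lipid synthesis, was also higher at ZT0 on average (9.28 against 8.94), and its part in the result was not tested.

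Ribosome biogenesis ran the other way. Of 21 tested genes 2 fell and 0 rose, beside 0.944% of all genes that fell. An unadjusted p under 0.05 was found for 10, beside 1806 of all 12823 genes, and the median was -0.26. Polr1b, a subunit of RNA polymerase I, had 5.84, 6.43, 5.73 and 6.12 at ZT0, against 6.58, 6.64, 6.73 and 6.90 at ZT20 (-0.68, adjusted p = 0.00897; -0.62 and -0.58, with adjusted p of 0.0613 and 0.0636, without ZT0 replicate 1 or 3). Nop16, a nucleolar protein, fell by 0.44 with overlap (adjusted p = 0.0378; -0.55 without ZT0 replicate 4), and its call was lost without ZT0 replicate 1, 2 or 3 or ZT20 replicate 2, 3 or 4 (adjusted p of 0.063 to 0.209). A second Nop16 probe set gave -0.15. The list mean was 8.64 to 8.86 at ZT0, against 8.93 to 9.14 at ZT20, without overlap.

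Fas, Ddit3 and Ccl2 were each the 1 gene of their list that rose with all 8 arrays, beside 1.15% of all genes. Fas, a death receptor and p53 target, had 7.02, 7.08, 6.76 and 5.90 at ZT0, against 5.88, 5.69, 5.77 and 6.15 at ZT20 (0.82, adjusted p = 0.00278; 1.08 without replicate 4 of ZT0). Ddit3, the stress factor CHOP, rose by 0.53 with overlap (adjusted p = 0.029; 0.62 without ZT0 replicate 4), the 1 call among 22 genes of the unfolded protein response and ATF4, and the call was lost without ZT0 replicate 1, 2 or 3 or ZT20 replicate 2, 3 or 4 (adjusted p of 0.0799 to 0.115). Ccl2, a monocyte chemokine, rose by 0.57 without overlap (adjusted p = 0.0298), the 1 call among 14 genes of stressed keratinocytes, and its call was lost without ZT0 replicate 1 (0.39, adjusted p = 0.233) or ZT20 replicate 1 or 2 (adjusted p of 0.0978 and 0.0807). Without ZT0 replicate 4, 3 genes of stressed keratinocytes rose, among them Il6, an inflammatory cytokine (0.87, adjusted p = 0.0118, against 0.66 and 0.0978 with it), and with median centring or loess 0 did. In the list of DNA repair and p53, 2 rose without that array, the second being Gadd45a, a growth arrest gene (1.05, adjusted p = 0.00978, against 0.77 and 0.1 with it).

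Several lists had 0 calls by limma. Immediate early genes had a median of 0.01 over 27 genes with 6 at an unadjusted p under 0.05, beside 1806 of all 12823 genes. Without replicate 4 of ZT0 6 of them rose, beside 266 of all genes in that fit. Nrf2 targets (15 genes, median 0.08), interferon-stimulated genes (13, median 0.15), basement membrane and adhesion (17, median -0.09) and autophagy (19, median 0.05) had 4, 1, 3 and 2 genes at an unadjusted p under 0.05. Cirbp, the 1 cold-inducible gene tested, differed by 0.26 (unadjusted p = 0.308).

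The same step in young cells called fewer genes and, for the most part, others. In young cells 57 genes rose and 38 fell (0.741% of those tested, 0.445% higher and 0.296% lower), and 11 genes passed at both ages, 4.09% of the aged and 11.6% of the young calls. Of those 11, Tef, Fkbp5, Mcm2, Mcm3, Mcm5, Pola1, Lig1 and Adgrl1, an adhesion receptor, fell at both ages, and Mul1, Ppp1r10 and Tm4sf1 went opposite ways. Of the 269 aged calls, 115 had the same sign in young cells. Over all 12823 genes the aged and young differences had a Pearson correlation of -0.014, given as a description across genes, which are not independent replicates.

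**Figure D4:**
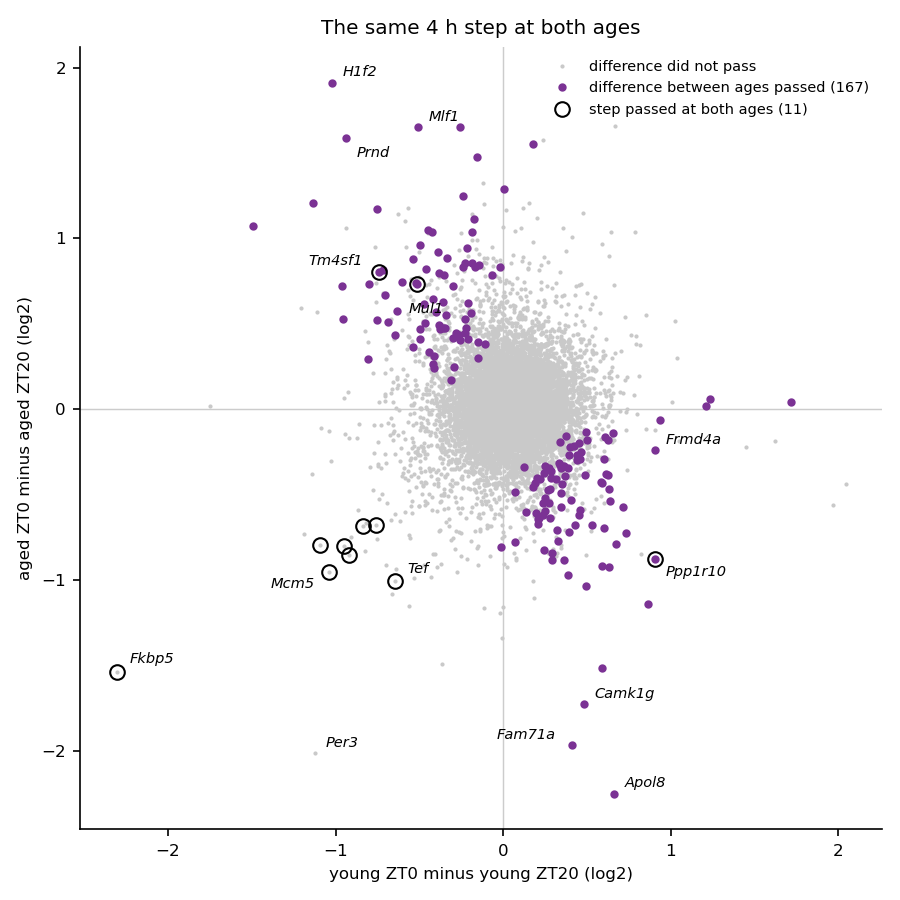
Each point is 1 of 12823 genes; the horizontal axis is young ZT0 minus young ZT20 and the vertical axis aged ZT0 minus aged ZT20 (log2). Purple marks the 167 genes whose step differed between the ages, 161 of which have steps of opposite sign at the ages, and circles mark the 11 genes that passed at both ages. Choosing genes by the difference of the steps favours opposite signs, so the count of 161 is a description.

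The test of the difference between the ages called 167 genes, 1.3% of those tested, with a higher step in aged cells for 77 (0.6%) and a lower one for 90 (0.702%). Of these, 90 were among the 269 aged calls and 59 were called in neither age alone. Ppp1r10, a nuclear regulatory subunit of protein phosphatase 1, read 8.13, 8.56, 7.97 and 8.97 at ZT0 in aged cells, against 9.32, 9.36, 9.53 and 8.92 at ZT20. It fell by 0.88 in aged cells (adjusted p = 0.00546; -1.07 without ZT0 replicate 4) and rose by 0.91 in young cells (adjusted p = 0.00673), a difference between the ages of -1.78 (SE 0.26, adjusted p = 1.72e-04).

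Mul1, a ubiquitin ligase of the outer mitochondrial membrane, was its mirror image. In aged cells it read 8.82, 8.75, 9.02 and 8.28 at ZT0, against 7.99, 7.83, 8.06 and 8.06 at ZT20, a rise of 0.73 (adjusted p = 0.00107; 0.88 without ZT0 replicate 4), while in young cells it fell by 0.51 (adjusted p = 0.0448). The ages differed by 1.24 (SE 0.18, adjusted p = 1.72e-04), and a second Mul1 probe set rose less in aged cells (0.37). Tm4sf1, a surface protein with 4 membrane spans, rose by 0.81 in aged cells (adjusted p = 0.00951) and fell by 0.74 in young cells (adjusted p = 0.0403), a difference of 1.54 (adjusted p = 0.00113). Its aged call was lost without ZT0 replicate 3 or ZT20 replicate 4 (adjusted p of 0.0587 and 0.0823). A second Tm4sf1 probe set above the dim limit gave 0.40 in aged cells.

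The largest differences between the ages belonged to genes already described. H1f2 differed by 2.93 (SE 0.49), Prnd by 2.53 (SE 0.47), Apol8 by -2.91 (SE 0.50) and Fam71a by -2.38 (SE 0.41), with adjusted p of 0.00113, 0.00399, 0.00113 and 0.00113. In young cells none of the 4 passed the test of the step (-1.02, -0.94, 0.66 and 0.41; adjusted p of 0.182 to 0.612). Hpca, a neuronal calcium sensor, and Srp54b, of the signal recognition particle, differed by -1.56 and 1.35 (adjusted p = 0.00113 and 0.00221), and they moved by -0.93 and 0.75 in aged cells (adjusted p = 0.00454 and 0.0101). Hpca was also near the dim limit at aged ZT0 (3.67 to 4.41). Srp54b has close copies in the mouse, so its signal may be shared, and its aged call was lost without ZT20 replicate 4 (0.59, adjusted p = 0.0749).

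Frmd4a, a scaffold protein of cell polarity, owed its difference of -1.15 (adjusted p = 0.00113) to the young step. In aged cells it read 8.24, 8.59, 7.66 and 8.51 at ZT0, against 8.21, 8.51, 8.61 and 8.62 at ZT20, with overlap (-0.24, adjusted p = 0.443), whereas in young cells it rose by 0.91 (adjusted p = 2.30e-04). Cpt1a, Pdk1 and Sox9 also differed between the ages, by -0.74, -0.80 and 1.22 (adjusted p = 0.0383, 0.00492 and 0.0101). Bhlhe40 differed by 0.85 (adjusted p = 0.0355).

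The clock and S phase genes gave other values at this test. In the S phase list 0 of 28 genes passed the test of the difference between the ages by limma. In that test 4 had an unadjusted p under 0.05, beside 1560 of all 12823 genes. Of its members 10 fell in aged cells, with a median of -0.50, beside 0.944% of all genes. In young cells 5 fell, with a median of -0.46, beside 0.296% of all genes. Per3 and Tef differed between the ages by -0.89 and -0.36 (95% intervals of -1.88 to 0.09 and -0.80 to 0.07), with adjusted p of 0.481 and 0.538. Angptl4 differed by -1.17 (adjusted p = 0.126), with a young step of -0.02. A p over the threshold does not show that the ages act alike.

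The count of differing genes moved with the mice and with weighting. It was 59, 64 and 356 without aged ZT0 replicates 1, 3 and 4, 89 without aged ZT20 replicate 2, 87 without young ZT0 replicate 1, and 105, 79 and 94 without young ZT20 replicates 1, 2 and 3. With array weights it was 373. The 10 genes chosen by their p kept their direction under all alternatives tried, and each passed with every array left out.

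**Figure D5:**
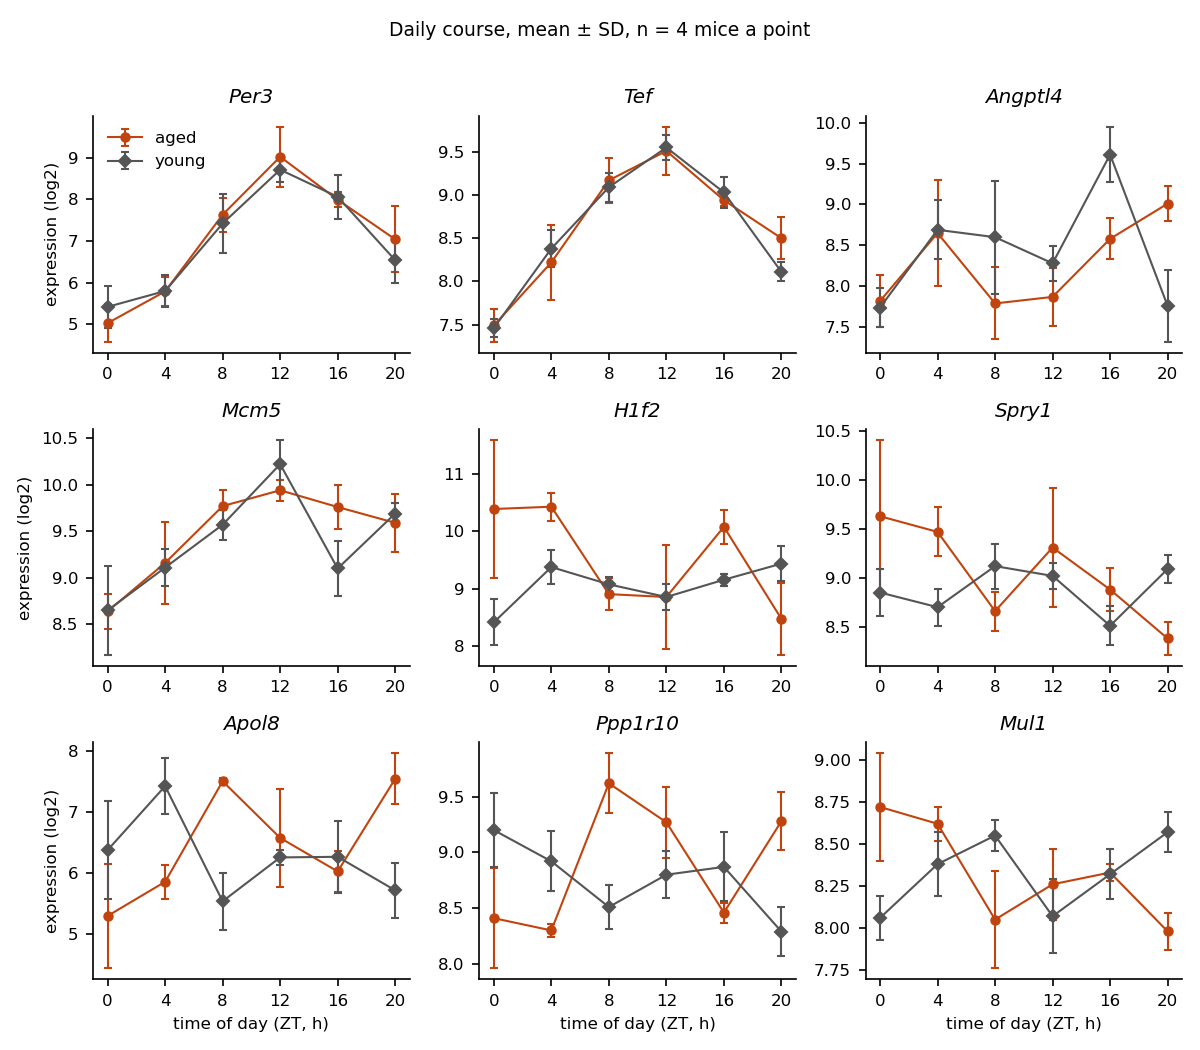
Mean ± SD of expression (log2) at 6 times of day in aged (orange) and young (grey) cells, 4 mice a point, for 9 genes. Per3, Tef and Mcm5 are at their lowest mean at ZT0 at both ages; H1f2, Spry1 and Mul1 are higher at ZT0 than at ZT20 in aged cells and lower at ZT0 than at ZT20 in young cells, and Ppp1r10 and Apol8 do the reverse.

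The daily course sets the dawn step in the day. Tef in aged cells had means of 7.49, 8.22, 9.17, 9.51, 8.94 and 8.50 from ZT0 to ZT20, a single wave with its low at dawn, and Mcm5 had 8.64, 9.16, 9.77, 9.94, 9.76 and 9.59. H1f2 had 10.39, 10.43, 8.91, 8.86, 10.08 and 8.48 in aged cells, with high means at ZT0, ZT4 and ZT16 and an SD of 1.20 at ZT0. Apol8 had 5.30, 5.86, 7.51, 6.58, 6.03 and 7.55, high at ZT8 and ZT20. Spry1 had 9.63, 9.47, 8.66, 9.31, 8.88 and 8.38, lowest at ZT20. No test of these courses was made here.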

How the data were processed

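Each array measured 1 colour. Per the labels' protocols, RNA was isolated using TRizol, 25 ng were amplified by WTA2 over 17 cycles, and the product carried biotin. The authors deposited log2 values per probe set, made with RMA per the submitters' processing notes, which corrects background, brings arrays to 1 distribution and combines probes. No source used here states its version or whether the arrays were run in 1 batch of RMA. Of 45141 probe sets 28898 have 1 gene symbol, 551 several and 15692 none. They name 17097 genes, each represented by its brightest probe set over all arrays; the dimmest 25% (mean under 3.957) were not tested.

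limma 3.58.1 in R 4.3.3 fitted all 48 arrays as 12 groups of 4 (36 residual degrees of freedom), with the contrasts aged ZT0 minus aged ZT20, the same in young, and their difference, 2-sided, adjusted by Benjamini-Hochberg over 12823 genes. The script was tested on simulated data. Precision is limited by 4 mice a group.

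The comparison, the lists and the rule for named genes were chosen with earlier results of these data known. Named were every tested clock gene; Fkbp5, Tsc22d3, Klf9, Pdk4 and Angptl4; the 15 largest rises and falls among called genes; up to 4 members with the smallest p of each list with a call; and the 10 smallest p of the difference between the ages, without predicted genes or clones. Other members of the S phase and G2 lists, histone genes, Cirbp and Adgrl1 were named after their values were seen.

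Alternatives were other filters on dim genes, the mean of all probe sets, median centring, cyclic loess, array weights, trend and robust eBayes, the replicate number as a block, fewer arrays in the fit, a minimum fold of 1.5, and leaving out arrays singly. Same-numbered aged ZT0 and ZT20 arrays did not deviate together, and mice were treated as independent. Deviations of differently numbered arrays had correlations of -0.309 to 0.34, and sharing under other numbers was not addressed. Whether mice shared a litter or a day was not tested. Promoters were matched by symbol for 10302 of the tested genes.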

Additional observations from a re-analysis of the deposited data

Results flagged for a closer look

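In 200 groups of 4 arrays (100 named genes at aged ZT0 and aged ZT20) 1 array lay far from the other 3 in 19. Chance flags about 1 in 20 groups. ZT0 replicate 4 was the far array for H1f2 (8.61, the others at 10.83 to 11.09), Mlf1 (5.01, the others at 7.10 to 7.36), Prnd (3.97, the others at 6.76 to 7.07), Apol8 (6.57, the others at 4.69 to 5), Zfp296 (8.18, the others at 6.24 to 6.34) and Per2 (5.35, the others at 6.29 to 6.39). For the first 5 of these genes it lay toward the ZT20 level, and for Per2 it lay away from it.

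Other mice stood out in single genes. At ZT0 replicate 1 was far for Tktl1 (3.94) and Ccl2 (6.53), replicate 2 for Cry2 (8.10) and Nfil3 (10.09), and replicate 3 for Arntl (9.89) and Mcm6 (6.18). At ZT20 replicate 1 was far for Pgk1 (11.36) and Polr1a (6.61), replicate 2 for Arntl2 (6.19), replicate 3 for Plin2 (9.04), and replicate 4 for Lig1 (9.69), Nfatc1 (8.93) and Fgf18 (4.94).

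Of the 100 named genes 28 had a dawn step that differed between the ages by limma (adjusted p under 0.05). The aged minus young difference was above 0 for Bhlhe40 (0.85), H1f2 (2.93), Krt23 (1.91), Mlf1 (2.16), Prnd (2.53), H2bc4 (1.37), Cnn3 (1.63), Serpinb1a (1.28), Spry1 (1.49), Sox9 (1.22), Mul1 (1.24), Tm4sf1 (1.54) and Srp54b (1.35). It was below 0 for Apol8 (-2.91), Fam71a (-2.38), Camk1g (-2.21), Tktl1 (-2.11), Zfp296 (-2), Rasl11b (-1.53), Rnf227 (-1.36), Ddit4 (-1.46), Cpt1a (-0.74), Herpud1 (-0.73), Pdk1 (-0.80), Dll1 (-0.65), Ppp1r10 (-1.78), Frmd4a (-1.15) and Hpca (-1.56). The 10 genes named for the smallest p of this test are among them, and many others were named for a large aged step, so the count is not a share of genes at large.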

How the results depend on the processing

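With 8 arrays, counts of genes past the threshold depended on the spread that was assumed. The aged step called 269 genes, 9 with only the 8 arrays fitted, 154 with aged arrays alone, 498 without the 4 arrays of lowest weight and 113 without the lowest-weight array of each aged group (the last 2 settings were chosen after seeing the data); one array left out gave 96 to 492. S phase genes that fell numbered 10, 5 with array weights, 0 with only the 8 arrays, 1 without the lowest-weight array of each aged group, and 5 to 13 with one array left out. The difference between the ages called 167 genes, 373 with array weights, 23 with only the 16 arrays of the 4 groups, and 59 to 356 with one array left out. All other alternatives kept these 3 counts within 1.5 times. Counts without 1 array come from a fit that pools the spread over all groups.

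Among named genes 1750 of the alternative values kept their direction and side of the threshold, 184 no longer passed, 41 newly passed and 10 reversed. The reversed values, none past the threshold in either case, were Arntl -0.04 with array weights, Clock -0.07 without ZT0 replicate 1, Arntl -0.21 and Rora -0.04 without ZT0 replicate 3, Klf9 0.09 without ZT0 replicate 4 and 0.03 without ZT20 replicate 2, Arntl -0.12 without ZT20 replicate 4, and Arntl -0.40, Rora -0.07 and Frmd4a 0.00 without the lowest-weight array of each aged group; the cause was not tested. With one array left out these differences ran from -0.21 to 0.19 for Arntl, -0.07 to 0.14 for Clock, -0.04 to 0.18 for Rora and -0.09 to 0.09 for Klf9. Of 53 named genes that passed, 27 also passed with each of the 8 aged arrays left out. Same-numbered aged ZT0 and ZT20 arrays showed no pairing in these values (correlations of same-numbered deviations -0.238 to 0.081, none of the 4 ZT0 arrays best with its own number). The labels do not say what the replicate numbers mark. With the replicate block 257 genes were called in the aged step, 11 in the S phase list and 156 in the difference between the ages.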
